A study of Mus musculus with 12 samples.

Results

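The mouse pineal transcripts described here are those of 6 genes. The 6 are the splicing factors Rbfox1, Rbfox2 and Rbfox3, the calcium-binding proteins Calb1 (calbindin) and Calb2 (calretinin), and the kinase subunit Camk2a. They were chosen by their measured difference between Crx-/- and control glands and by how much of it one Crx-/- array carried, so that difference is given below as a description without a test. All probe sets annotated to these genes alone were taken, 22 of the 45101 on the array, and 7 of the 22 passed a filter on low signals that required at least 3 arrays at or above the median of their array. The 7 comprise 3 probe sets of Rbfox1 and 1 each of Rbfox3, Calb1, Calb2 and Camk2a. None of the 4 Rbfox2 probe sets passed. A probe set could pass through the group in which it was bright, so the 7 are not a fair sample of the 22.

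Pineal glands of mice of both genders, older than 2 months and held under equal spans of light and dark, were measured on Affymetrix mouse 430_2 arrays. Control animals were of the strain 129sv, and Crx-/- animals are labelled as deficient in Crx, a homeobox transcription factor of photoreceptors and pinealocytes. Signals of Crx itself overlapped between the genotypes: probe set 1418705_at ranged from 6528.9 to 10047.7 on control and from 6261.5 to 8876.0 on Crx-/- arrays, and 1449185_at from 2239.6 to 3873.8 and from 1262.7 to 2439.1, although at ZT6 alone the latter was lower on all Crx-/- arrays (at most 1734.4). Whether these probe sets lie in the deleted part is not given in the sources used here, so Crx does not check the labels. Glands were taken by day at Zeitgeber time 6 (ZT6) and by night at ZT20, the latter under dim red light. Each of the 4 groups held 3 arrays, 12 in all, and 100 ng of RNA per array was amplified before labelling. How many glands went into 1 array is not given in the sources used here. Where a p-value is printed, limma set the difference against the spread within groups, shared over the 4 groups and adjusted by that of other probe sets. The number of arrays limits its precision.

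Rbfox proteins bind a short RNA motif beside alternative exons and thereby set which exons neurons keep or skip. Rbfox1 is found in neurons and muscle, Rbfox2 in many tissues, and Rbfox3, known to histologists as NeuN, in the nuclei of most mature neurons. Calbindin and calretinin are EF-hand proteins that buffer calcium and mark particular neurons of brain and retina. Camk2a encodes the alpha subunit of calcium/calmodulin-dependent kinase II, an abundant kinase of forebrain excitatory synapses. Pinealocytes are neuroendocrine cells related to photoreceptors, and the mammalian gland also receives nerve fibres and lies close to the habenula.

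One array stood apart from its label. The array labelled control ZT20 replicate 3 correlated on average at 0.919 with the other control ZT20 arrays, across 24273 probe sets, and at 0.964 or more with each Crx-/- ZT20 array. Since genes within an array are not independent, no test was made of these values. Results are therefore given with that array and without it. Trimmed mean signals of the deposited arrays ranged from 377 to 697, and all changes were computed on quantile-normalized log2 signals. The other array of concern, Crx-/- ZT6 replicate 3, correlated at 0.978 with the remaining arrays of its group and differed from them in a small set of probe sets described below. Of the 24273 probe sets, 72 lay more than 1 above every other Crx-/- array there. Crx-/- ZT20 replicate 1 had 105 such probe sets, and the remaining Crx-/- arrays had 2 to 16. Counted against the rest of the control arrays, control ZT6 replicate 3 had 93 and control ZT20 replicate 3 had 389. The remaining control arrays had 0 to 6. By this count alone Crx-/- ZT6 replicate 3 was not unusual.

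Summed signals of several cell type marker lists differed with genotype. Of 10 lists, 7 had summed signals that separated the 6 Crx-/- arrays from the 5 control arrays other than the one labelled control ZT20 replicate 3. The 12 pinealocyte markers summed to 69161 to 73025 on those control arrays and to 59806 to 66865 on the Crx-/- arrays. Of the 12, 4 were lower on all 6 Crx-/- arrays than on those control arrays (Gnb3, Gngt1, Pde6c and Tph1), and 8 overlapped. Sums of pan-neuronal markers (38021 to 39845 against 28619 to 33260) and habenula and thalamus markers (24605 to 26109 against 18098 to 20277), a list that holds Calb2, were also lower in Crx-/- glands, but the markers within them did not all go that way. Of 15 pan-neuronal markers 5 were lower on all 6 Crx-/- arrays than on those control arrays, 2 were higher and 8 overlapped, and of 13 for habenula and thalamus 2 were lower and 3 higher. Those 3 were Tcf7l2, the member Calb2, and Gpr151, which was above background on only 1 array. Retinal interneuron markers summed to 785 to 1399 on the control arrays and to 3152 to 3838 on the Crx-/- arrays, astrocyte markers to 5761 to 7188 and 9249 to 14526, oligodendrocyte markers to 5482 to 6279 and 9023 to 11521, and meningeal and mural markers to 19707 to 27434 and 31813 to 38019. Higher on all 6 Crx-/- arrays were 5 of 10 retinal interneuron, 6 of 8 astrocyte, 5 of 9 oligodendrocyte and 4 of 9 meningeal and mural markers. Of all 24273 kept probe sets 13.3% were higher in this way, and the share that was lower was not computed. On the array labelled control ZT20 replicate 3 the 7 sums lay within the Crx-/- range, save that of retinal interneurons, which was above it at 4032. At ZT6 the ratio of 5' to 3' actin probe sets was 0.248 to 0.283 in control and 0.169 to 0.219 in Crx-/- glands. The part of these differences in the members' values was not tested, and in bulk glands fewer cells of a type and less RNA per cell cannot be told apart.

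Rbfox1 had higher mean signals in Crx-/- than in control glands at both times. Its leading probe set (1455358_at, the kept one with the highest mean) read, in deposited signal, 70.1, 49.4 and 60.3 on the control arrays of ZT6 and 79.0, 130.4 and 428.8 on those of ZT20, in the order of replicates 1 to 3. On the Crx-/- arrays it read 694.0, 608.3 and 790.2 by day and 660.4, 384.4 and 558.6 by night. The 5 control arrays other than the one labelled control ZT20 replicate 3 lay far below all 6 Crx-/- arrays. That array, the last of the control ZT20 values, lay within the Crx-/- range as deposited and just below it after normalization. Group means of log2 signal were 5.99 ± 0.20 (SD, n = 3) in control ZT6, 7.71 ± 0.71 in control ZT20, 9.04 ± 0.54 in Crx-/- ZT20 and 9.32 ± 0.31 in Crx-/- ZT6. The last 2 of these overlapped, and the others were ordered without overlap on this scale. The difference of Crx-/- from control over both times was 2.34 ± 0.24 (log2, SE) with 12 arrays and 2.52 ± 0.20 without both arrays of concern.

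The other kept Rbfox1 probe sets behaved alike. Probe set 1418314_a_at read 71.0, 61.3 and 52.8 on the control arrays of ZT6 and 106.8, 126.0 and 659.8 on those of ZT20. The Crx-/- arrays read 586.1, 871.7 and 682.5 by day and 289.7, 347.5 and 582.6 by night. Probe set 1438217_at was dimmer, with 22.9, 27.3 and 16.7, then 15.5, 37.8 and 161.0, then 181.0, 203.8 and 318.8, and 80.2, 113.0 and 229.3 in the same order of groups. In both, all Crx-/- arrays lay above the 5 other control arrays, and the array labelled control ZT20 replicate 3 lay among the Crx-/- arrays. The fourth, 1447735_x_at, did not pass the filter, ranged from 2.9 to 29.9, and showed no separation of the groups.

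Rbfox3 was near background in control glands and above it on every Crx-/- array. Probe set 1436450_at read 7.2, 10.6 and 31.4 on the control arrays of ZT6 and 11.1, 12.3 and 55.4 on those of ZT20. On Crx-/- arrays the signal was 87.9, 116.2 and 832.7 by day and 57.5, 70.1 and 95.7 by night. All 6 Crx-/- arrays lay above all 6 control arrays, and Crx-/- ZT6 replicate 3 lay far above the rest. Background, the highest of 27 Bacillus control probe sets for which glands hold no transcript, was at most 16.4 in deposited signal. It was exceeded on 1 of 3 arrays in control ZT6 and 2 of 3 in control ZT20 after normalization. Mean log2 signals were 4.10 ± 0.87 (SD, n = 3) and 4.79 ± 0.65 in control ZT6 and ZT20, which overlapped, then 6.19 ± 0.07 in Crx-/- ZT20 and 7.66 ± 1.58 in Crx-/- ZT6, which did not. Over both times Crx-/- glands were higher by 2.48 ± 0.48 (log2, SE), and by 2.20 ± 0.32 without both arrays of concern. Of the remaining Rbfox3 probe sets, 1427286_at reached 51.1 on Crx-/- ZT6 replicate 3 and 0.7 to 28.5 elsewhere, and 1456149_at ranged from 2.2 to 34.5 without separation.

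Upstream sequences of Rbfox1 and Rbfox3 are shown because the leading probe set of each was higher on every Crx-/- array than on every control array after normalization, as no other kept probe set of the members was. They run from 250 bases before to 50 after each RefSeq start (GRCm38.p6), 5′ to 3′ on the gene's strand, with matches to the E-box core CANNTG, which reads the same on both strands, in capitals. The Rbfox3 start and the second Rbfox1 start lie inside their genes and not at the outer 5′ end. Rbfox3 spans 118489760 to 118911597 on chromosome 11, and Rbfox1 spans 5884793 to 7412480 on chromosome 16.
Rbfox1 first start, chr16:5884543-5884842, plus strand: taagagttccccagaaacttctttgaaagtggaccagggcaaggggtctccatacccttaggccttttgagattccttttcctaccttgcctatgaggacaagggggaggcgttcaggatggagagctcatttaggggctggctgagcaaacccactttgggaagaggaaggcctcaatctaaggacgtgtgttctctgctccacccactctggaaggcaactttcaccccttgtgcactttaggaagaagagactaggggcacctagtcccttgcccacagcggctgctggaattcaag
Rbfox1 second start, chr16:7069585-7069884, plus strand: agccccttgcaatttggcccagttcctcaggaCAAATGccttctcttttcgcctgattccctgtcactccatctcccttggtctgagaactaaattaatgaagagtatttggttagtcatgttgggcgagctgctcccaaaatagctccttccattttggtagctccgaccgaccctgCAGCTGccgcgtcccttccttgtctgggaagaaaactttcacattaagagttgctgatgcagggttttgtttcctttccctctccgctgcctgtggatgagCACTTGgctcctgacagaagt
Rbfox3, chr11:118760992-118761291, minus strand: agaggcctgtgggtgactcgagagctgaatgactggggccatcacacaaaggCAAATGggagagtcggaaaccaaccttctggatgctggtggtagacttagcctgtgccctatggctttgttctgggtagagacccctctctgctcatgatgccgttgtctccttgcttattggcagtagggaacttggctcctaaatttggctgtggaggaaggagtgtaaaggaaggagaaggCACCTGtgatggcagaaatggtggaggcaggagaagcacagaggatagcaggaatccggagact
The E-box core, bound by basic helix-loop-helix factors of neurons, occurred 0, 3 and 2 times in these windows, and 72.3% of 32851 promoters of the same length hold it. CAAATG stands in the second Rbfox1 window and in that of Rbfox3. The core TAATCC of Crx and Otx sites, searched on both strands, matched none of the 3, and 7.06% of promoters hold it. These matches are letters in a window of 300 bases and do not show binding or its absence.

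Rbfox2, the widely expressed member of the family, differed least. Its leading probe set (1434938_at) read 48.5, 55.6 and 73.0 on the control arrays of ZT6 and 30.1, 53.5 and 141.0 on those of ZT20. Readings in Crx-/- glands were 76.0, 102.3 and 120.5 by day and 66.4, 80.1 and 138.2 by night. After normalization all 6 Crx-/- arrays lay above the 5 other control arrays, but within a narrow span, and the array labelled control ZT20 replicate 3 was the highest of all 12. Mean log2 signals were 5.95 ± 0.24 (SD, n = 3) in control ZT6, 6.32 ± 0.46 in control ZT20, 6.49 ± 0.19 in Crx-/- ZT20 and 6.59 ± 0.04 in Crx-/- ZT6, and neighbours in this order overlapped. In a fit with no filter the difference of Crx-/- from control over both times was 0.41 ± 0.18 (log2, SE). The 3 dimmer Rbfox2 probe sets spanned 21.0 to 79.4, 13.1 to 65.5 and 8.5 to 43.7.

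**Figure D1:**
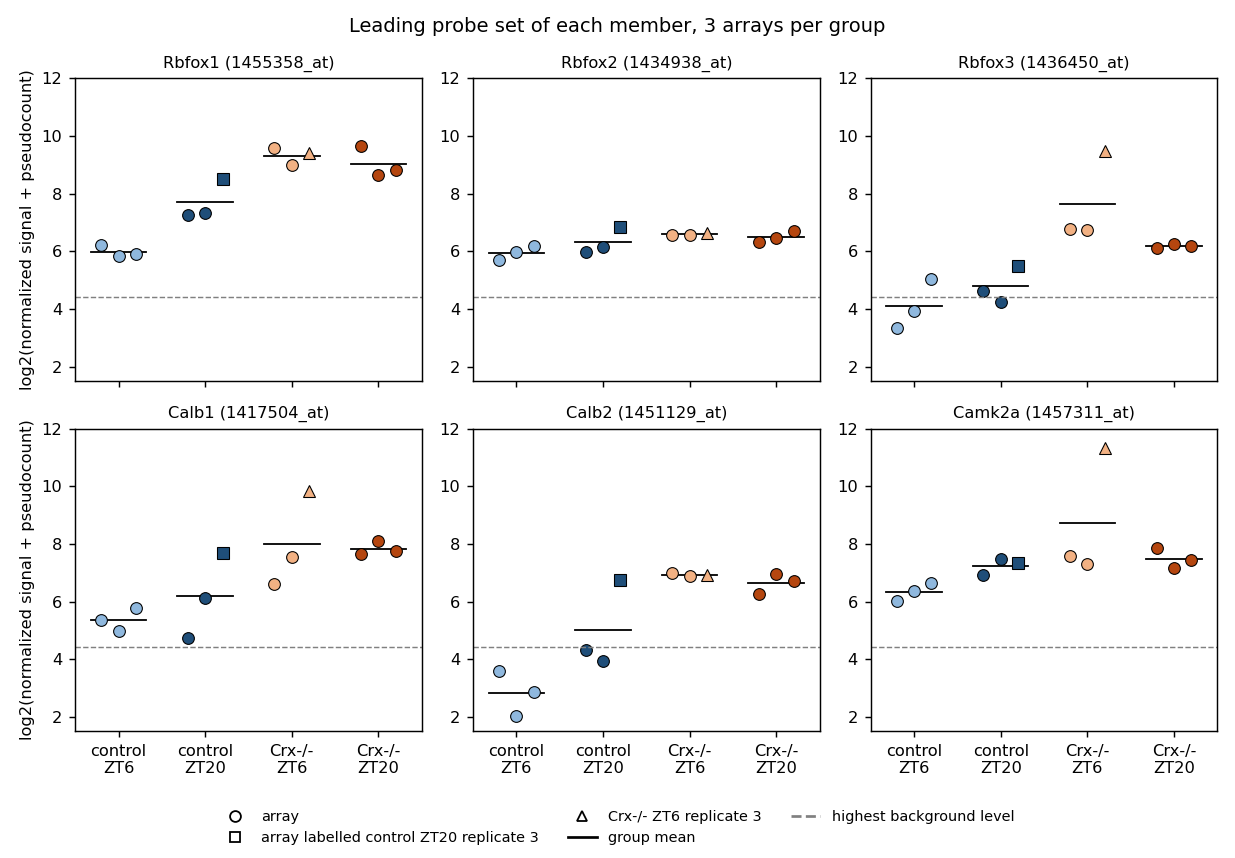
Normalized log2 signal (vertical axis, log2 of signal plus 3.4) of the leading probe set of each of the 6 genes on 12 arrays, by group, with group means as bars and the highest background level as a dashed line. Rbfox1, Rbfox3, Calb1 and Calb2 are higher on all Crx-/- arrays than on the 5 control circles, and the triangle, Crx-/- ZT6 replicate 3, stands far above the rest for Rbfox3, Calb1 and Camk2a.

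Calb2 was at background in control glands by day and well above it on every Crx-/- array. Probe set 1451129_at, the only one for the gene, read 9.3, 0.6 and 3.8 on the control arrays of ZT6 and 8.8, 9.5 and 134.1 on those of ZT20. The Crx-/- arrays gave 103.2, 131.3 and 144.9 by day and 63.2, 116.4 and 140.4 by night. All 5 other control arrays were at or below background, while the array labelled control ZT20 replicate 3 lay among the Crx-/- arrays. At ZT6 Crx-/- glands were at least 6.80-fold higher, with background in place of the dimmer control values. At ZT20 the bound was at least 4.78-fold without the array labelled control ZT20 replicate 3. Mean log2 signals in control were 2.84 ± 0.78 (SD, n = 3) at ZT6, all below background, and 5.00 ± 1.54 at ZT20, with 1 of 3 arrays above it. Those in Crx-/- glands, 6.65 ± 0.36 at ZT20 and 6.93 ± 0.05 at ZT6, overlapped. The fitted difference over both times was 2.87 ± 0.45 (SE) with 12 arrays and 3.32 ± 0.33 without both arrays of concern, and these fitted values rest on signals below background.

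Calb1 held both patterns at once. Probe set 1417504_at read 38.1, 25.3 and 54.3 on the control arrays of ZT6 and 12.0, 52.9 and 249.8 on those of ZT20. In Crx-/- glands it read 77.3, 212.8 and 1044.5 by day and 166.0, 258.4 and 277.9 by night. Every Crx-/- array was above the 5 other control arrays, and Crx-/- ZT6 replicate 3 was well above the next one. Mean log2 signals were 5.37 ± 0.40 (SD, n = 3) in control ZT6, 6.18 ± 1.48 in control ZT20, 7.82 ± 0.24 in Crx-/- ZT20 and 7.99 ± 1.66 in Crx-/- ZT6, and neighbours in this order overlapped. Over both times Crx-/- glands were higher by 2.13 ± 0.54 (log2, SE), and by 2.05 ± 0.29 without both arrays of concern. At ZT6 alone the difference was 2.62 with 12 arrays and 1.70 without both, a fall in fold of more than 1.5 times. Of the 3 other Calb1 probe sets, 1456934_at read 108.4 on Crx-/- ZT6 replicate 3 and 8.6 to 21.4 on the other Crx-/- arrays, and 1448738_at and 1458836_at did not exceed 18.9.

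Camk2a was far brighter on 1 Crx-/- array than on any other, and the remaining Crx-/- arrays were close to control ZT20. Probe set 1457311_at read 61.6, 74.6 and 102.6 on the control arrays of ZT6 and 60.9, 145.6 and 195.7 on those of ZT20. Crx-/- glands gave 162.0, 178.2 and 2850.1 by day and 194.4, 132.1 and 227.2 by night. Without Crx-/- ZT6 replicate 3 the Crx-/- arrays and the control ZT20 arrays overlapped, and only control ZT6 lay below them. Mean log2 signals were 6.35 ± 0.30 (SD, n = 3) in control ZT6, 7.24 ± 0.29 in control ZT20, 7.49 ± 0.35 in Crx-/- ZT20 and 8.74 ± 2.25 in Crx-/- ZT6, and every neighbour after control ZT6 overlapped. At ZT6 the difference of Crx-/- from control was 2.39 (log2) with 12 arrays and 1.09 without both arrays of concern, and at ZT20 it was 0.24 and 0.29.

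Further Camk2a probe sets showed the same array. Probe set 1442707_at read 715.7 on Crx-/- ZT6 replicate 3 against 12.1 to 33.1 on the other Crx-/- arrays and 2.0 to 23.6 on control arrays. The readings of 1452453_a_at and 1437125_at were 67.8 and 75.0 there, and at most 18.5 on any of the other 11 arrays. Probe set 1443876_at read 33.2 there and at most 13.0 elsewhere, and 1441734_at did not exceed 5.4 on any array. Of the 6 Camk2a probe sets 5 were brightest on the same array, although they are probes for 1 gene and not replicates of a condition.

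The members could be ordered by how far Crx-/- ZT6 replicate 3 lay above the next highest Crx-/- array on the log2 scale. That gap was 3.47 for Camk2a, 2.73 for Rbfox3 and 1.74 for Calb1, against -0.07 for Calb2, -0.07 for Rbfox2 and -0.25 for Rbfox1 in the leading probe sets. Relative to the mean of the other 2 Crx-/- ZT6 arrays the array was 14.8-fold higher for Camk2a, 6.70-fold for Rbfox3 and 6.79-fold for Calb1, and 1.09-fold for Rbfox1, 1.05-fold for Rbfox2 and 0.98-fold for Calb2. With a threshold of 1 on the gap, 7 of the 22 probe sets were carried by that array, 4 of Camk2a, 2 of Calb1 and 1 of Rbfox3. The member just inside the threshold was Camk2a 1437125_at at 1.59, and the one just outside was Rbfox3 1427286_at at 0.95. Of the kept probe sets 3 of 7 passed it, where 0.297% of all 24273 did, and 0.779% of 45037 did with no filter. These shares belong to the rule that chose the members, so nothing is read from them.

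By contrast, the difference shared by all Crx-/- arrays had other leaders. Averaged over the 5 other Crx-/- arrays against the 5 other control arrays it was 2.63 for Rbfox1, 2.18 for Rbfox3, 2.13 for Calb1 and 0.53 for Rbfox2 on the log2 scale, and 0.78 for Camk2a. For Calb2 it was 3.42, computed with control signals below background. Of the 7 kept probe sets, 2 were higher on all 6 Crx-/- arrays than on all 6 control arrays, 1 of Rbfox1 and that of Rbfox3, where 4.61% of kept probe sets were. Against the 5 other control arrays 6 of 7 were, all but Camk2a, where 13.3% of kept probe sets were. The members were selected on this difference, and these counts are given only for completeness.

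**Figure D2:**
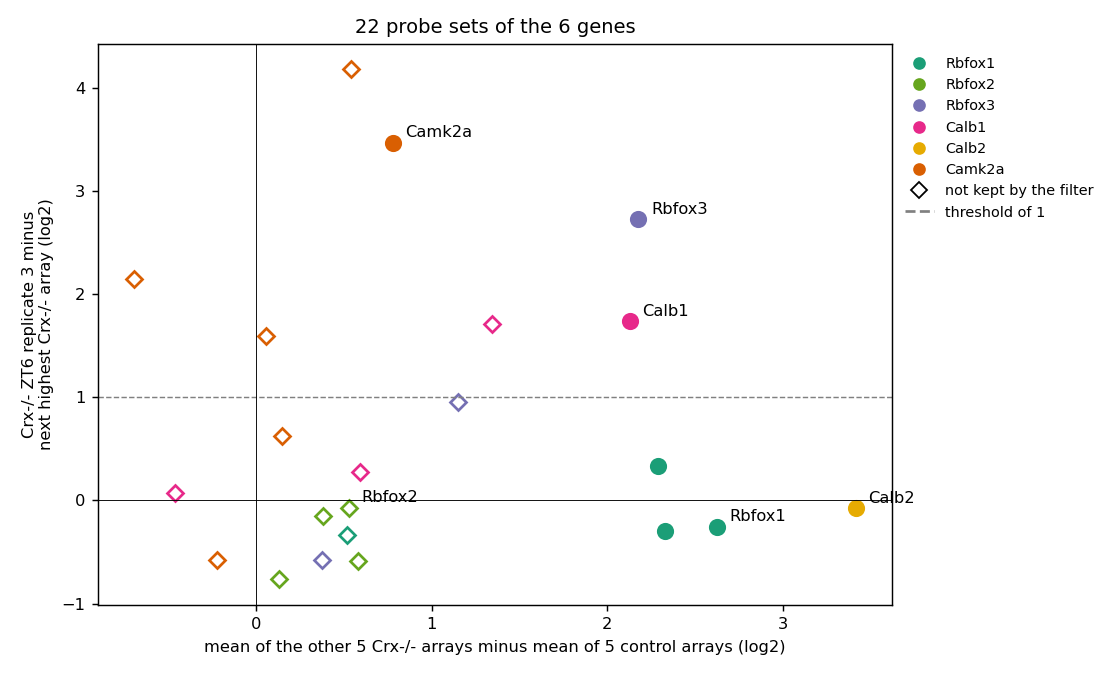
Each of the 22 probe sets by the difference shared by the other Crx-/- arrays (horizontal axis, log2) and by the gap of Crx-/- ZT6 replicate 3 above the next Crx-/- array (vertical axis, log2), with filled circles for the 7 kept by the filter. Rbfox1 and Calb2 lie to the right at a gap near 0, Camk2a lies high with a shared difference of 0.78, and Rbfox3 and Calb1 lie to the right and above the threshold of 1.

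On the array labelled control ZT20 replicate 3 the members lay near the Crx-/- ZT20 level. Its log2 signal differed from the mean of the Crx-/- ZT20 arrays by -0.52 for Rbfox1, -0.68 for Rbfox3, -0.14 for Calb1, 0.11 for Calb2, -0.16 for Camk2a and 0.34 for Rbfox2. It was closest to that level for Calb2, Calb1 and Camk2a, and Rbfox1 and Rbfox3 were lower there. For Camk2a it was as close to its own group, 0.12 above the mean of control ZT20 replicates 1 and 2. That gap was 2.26 for Calb1 and 2.64 for Calb2, the latter over signals below background. Leaving it out changed the ZT20 difference of Crx-/- from control. With both arrays of concern left out, that difference was 1.74 in place of 1.34 for Rbfox1, 1.76 in place of 1.40 for Rbfox3 and 2.40 in place of 1.64 for Calb1. For Calb2 the remaining control ZT20 arrays were below background, so only the bound of at least 4.78-fold applies.

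On Crx-/- ZT6 replicate 3 other neuron genes moved with Camk2a, Rbfox3 and Calb1. Of 9 measured forebrain excitatory markers, 4 lay more than 1 above every other Crx-/- array on the log2 scale: the NMDA receptor subunit Grin2b, the transcription factors Neurod6 and Tbr1, and the calmodulin-binding protein Nrgn. Grin2b read 888.5 there against 22.7 to 59.4 on the other Crx-/- arrays, and Neurod6 read 130.9 against 0.1 to 4.1. Of 9 inhibitory markers, 3 did so, namely the glutamate decarboxylases Gad1 (610.2 against 17.1 to 34.4) and Gad2 (241.3 against 2.6 to 15.3) and the neuropeptide Vip (230.9 against 1.8 to 8.5). Neurod6 and Vip were below background on all 11 other arrays. The excitatory list summed to 5656 on that array, against 2554 to 3883 on the other Crx-/- arrays and 3077 to 4763 on control arrays, and the inhibitory list to 1358 against 295 to 479 and 213 to 410.

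Other genes of these lists stood out less or not at all. Slc17a7, the vesicular glutamate transporter of cortex, was also brightest there but only by 0.10 over the next Crx-/- array on the log2 scale, with 1339.7 against 336.3 to 1020.2, and Slc32a1, the vesicular GABA transporter, read 43.5 within a range of 31.3 to 52.8. Grin2a was below background on all 12 arrays, with 1.7 on this one. More than 1 above the other Crx-/- arrays were 3 of 15 pan-neuronal markers, 2 of 13 for habenula and thalamus, 1 of 9 for oligodendrocytes and 1 of 11 for cerebellum, which was Calb1 itself. For pinealocyte, astrocyte, meningeal and retinal interneuron lists the count was 0, and the pinealocyte sum was 60539, within the range of the other Crx-/- arrays. The astrocyte sum, at 14526, was the highest of the 12 arrays, against 9249 to 11269 on the other Crx-/- arrays. The part of another tissue's RNA in the members' values on this array was not tested, and the levels without the array stand beside each result above.

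**Figure D3:**
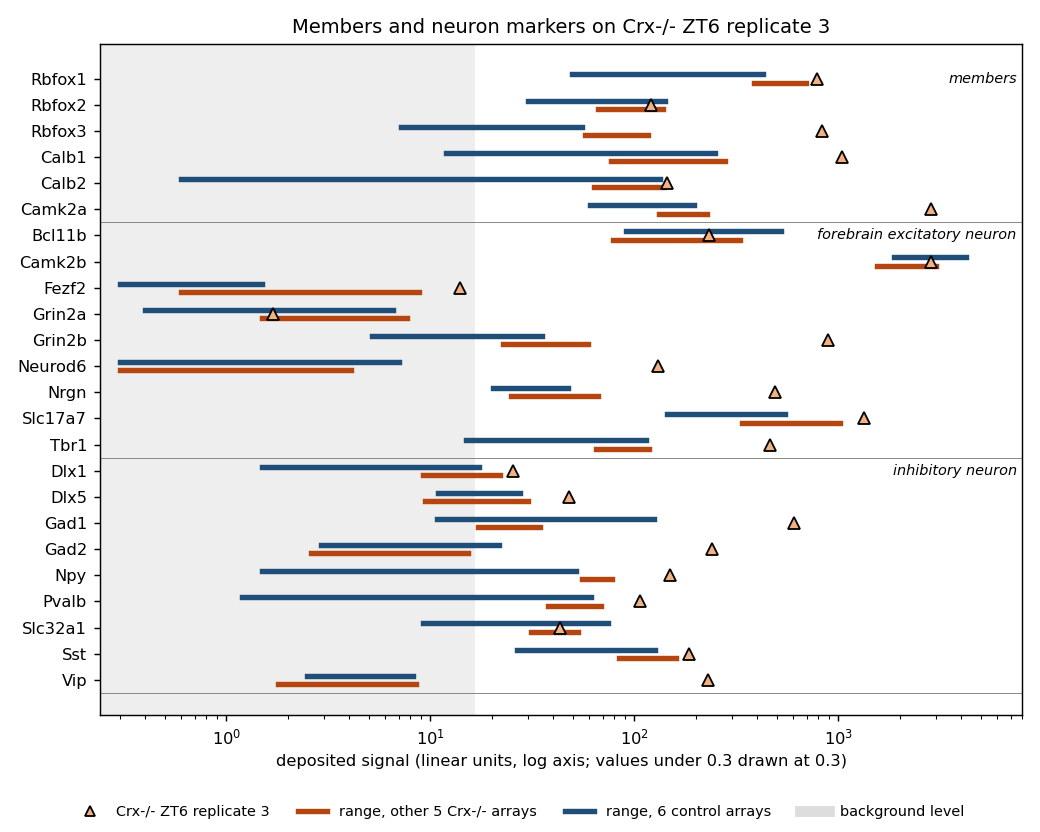
Deposited signal (horizontal log axis) of the 6 members and of the measured forebrain excitatory and inhibitory neuron markers, with a triangle for Crx-/- ZT6 replicate 3 and lines for the ranges of the other 5 Crx-/- arrays and of the 6 control arrays, over a grey zone up to the highest background level of 16.4. Camk2a, Rbfox3, Calb1, Grin2b, Neurod6, Nrgn, Tbr1, Gad1, Gad2 and Vip lie far to the right of both ranges, and Calb2 and Rbfox2 lie within or at the edge of the Crx-/- range.

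Time of day in control glands was not the difference on which the members were chosen. It shares the control arrays with that difference, so its p-values are not independent of the choice. Rbfox1 was higher at night in control glands, by 1.72 ± 0.34 (log2, SE, 3 arrays against 3) in the leading probe set (limma, adjusted p = 0.00699) and by 2.02 ± 0.37 in 1418314_a_at (adjusted p = 0.00472). Without the array labelled control ZT20 replicate 3 the rises were 1.31 ± 0.27 (adjusted p = 0.00453) and 1.46 ± 0.20 (adjusted p = 0.000341). The third kept probe set, 1438217_at, differed by 1.27 ± 0.44, which did not pass (adjusted p = 0.0798), nor did it without that array, with 0.71 ± 0.34 (adjusted p = 0.160). In the first 2 probe sets every control ZT20 array was above every control ZT6 array. Without scaling between arrays the leading probe set differed by 1.42 and no longer passed (adjusted p = 0.0752). Over its other alternatives its adjusted p lay between 0.00453 and 0.0306. Marker sums also moved with time in control glands. Those of meningeal and mural markers were 19707 to 21058 at ZT6 and 27023 to 27434 on ZT20 replicates 1 and 2, with 6 of 9 markers higher on both of these than on every ZT6 array, and those of retinal interneuron markers were 785 to 952 and 1379 to 1399, with 2 of 10 higher. Pan-neuronal sums were 38021 to 38114 and 39823 to 39845, and pinealocyte sums 72603 to 73025 and 69161 to 71007. Their part in the Rbfox1 difference was not tested.

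The other members gave weaker or no time difference in control glands. Calb2 rose by 2.16 ± 0.64 (log2, SE; limma, adjusted p = 0.0450; at least 1.79-fold), but only 1 of 3 control ZT20 arrays was above background, the one labelled replicate 3. Without that array the difference was 1.28 ± 0.44 between signals below background (adjusted p = 0.0561). In a fit of all 12 arrays with no filter the Calb2 difference did not pass (limma, adjusted p = 0.0533). For Camk2a the difference was 0.89 ± 0.77 (adjusted p = 0.491). When Crx-/- ZT6 replicate 3, which enters only through the shared spread, was left out, the same 0.89 had an SE of 0.25 and passed (adjusted p = 0.0409). Rbfox3 differed by 0.68 ± 0.68 (adjusted p = 0.557) and Calb1 by 0.81 ± 0.76 (adjusted p = 0.534). In all, 3 of the 7 kept probe sets passed, 2 of them for 1 gene, where 12.3% of all kept probe sets did, or 2 of 7 against 19.9% when the array labelled control ZT20 replicate 3 was dropped. The 7 could pass the filter through bright Crx-/- arrays, so nothing is read from these counts.

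In Crx-/- glands no member passed for time of day. The ZT20 minus ZT6 difference was -0.28 ± 0.34 (log2, SE) in the leading Rbfox1 probe set (limma, adjusted p = 0.778), -0.73 ± 0.37 in 1418314_a_at (adjusted p = 0.431), -0.28 ± 0.64 for Calb2 (adjusted p = 0.899) and -1.47 ± 0.68 for Rbfox3 (adjusted p = 0.383). The count was 0 of 7, where 1.24% of kept probe sets passed. This comparison holds Crx-/- ZT6 replicate 3, which the choice of members used, and without it 0 of 7 passed as well. Then the Rbfox3 difference was -0.56 ± 0.53 and that of Calb1 0.76 ± 0.66 in place of -0.17 ± 0.76. When the array labelled control ZT20 replicate 3 was left out, which lowered the shared spread, 1418314_a_at of Rbfox1 fell by 0.73 (log2, SE 0.18; adjusted p = 0.0391), where 4.67% of probe sets passed.

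The difference between the time effects of Crx-/- and control glands is made of the genotype differences that chose the members, so it is given without a test. In the leading Rbfox1 probe set this interaction was -2.00 ± 0.48 (log2, SE), and in 1418314_a_at it was -2.74 ± 0.52. The values were -1.59 ± 0.36 and -2.18 ± 0.27 when the array labelled control ZT20 replicate 3 was left out, and that of the leading probe set was -1.55 ± 0.40 without both arrays of concern. With 12 arrays the genotype difference of this probe set was 3.34 at ZT6 and 1.34 at ZT20.

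**Figure D4:**
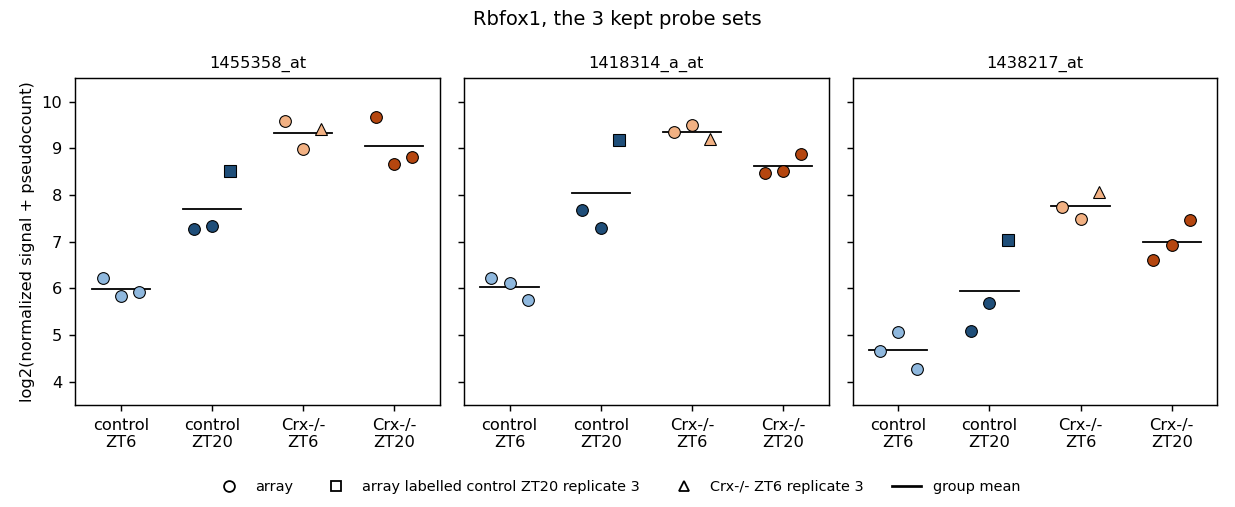
Normalized log2 signal (vertical axis) of the 3 kept Rbfox1 probe sets on the 12 arrays by group, with group means as bars, a square for the array labelled control ZT20 replicate 3 and a triangle for Crx-/- ZT6 replicate 3. In the first 2 panels the control ZT20 arrays lie above the control ZT6 arrays, and in all panels the Crx-/- arrays lie above the control circles.

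Other neuronal splicing regulators did not move as a group with the Rbfox genes. Of 20 tested genes of a list of splicing regulators, members left aside, 5 were higher and 5 lower in Crx-/- glands over both times (limma, adjusted p under 0.05), and the median log2 change was -0.01. With 12 arrays 24.5% of the leading probe sets of all 12379 genes were higher and 17.4% lower, with a median of 0.04. The counts were 6 and 7 of the 20 without both arrays of concern, for which no share over all genes is given. Nova1, a splicing factor of neurons, was higher by 1.95 ± 0.35 (adjusted p = 0.00154), with 603.2 to 951.3 in Crx-/- ZT6 against 124.8 to 154.2 in control ZT6. Celf4, of the CELF family, was higher by 0.58 ± 0.16 (adjusted p = 0.0146), and its relative Celf6 was lower, with -1.83 ± 0.39 (adjusted p = 0.00361). Celf3 was lower by -0.68 ± 0.14 over both times (adjusted p = 0.00346), which joins 0.07 ± 0.20 at ZT6 (adjusted p = 0.822) and -1.44 ± 0.20 at ZT20 (adjusted p = 0.0266). By time in control glands 1 of the 20 was higher and 3 were lower at night, where 6.33% of genes were higher and 8.05% lower. With control ZT20 replicate 3 left out 2 were higher and 5 lower. The share of kept probe sets passing in either direction was then 19.9%, against 12.3% with 12 arrays. The neuronal RNA-binding genes Elavl4 and Elavl2 fell by 1.45 and 1.08 on the log2 scale (SE 0.30 and 0.22; adjusted p = 0.00935 and 0.00751), Srrm3 by 0.46, and Ptbp3 rose by 0.41. Rbfox1 thus rose at night in control glands while both Elavl genes fell.

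EF-hand calcium-binding genes of neurons changed in both directions. Of 15 tested besides Calb1 and Calb2, 8 were higher and 5 lower in Crx-/- glands over both times, and 2 did not pass. Their median log2 change was 0.42. Of the leading probe sets of all genes 24.5% were higher and 17.4% lower, with a median of 0.04. The list was chosen with earlier results known, so the counts describe only its own genes. Leaving out both arrays of concern gave 7 higher and 6 lower, for which no share over all genes is given. Kcnip4, a subunit of potassium channels, was higher by 3.05 ± 0.43 (limma, adjusted p = 0.00055), Caln1 by 2.33 ± 0.52 (adjusted p = 0.00485; 2.97 with control ZT20 replicate 3 left out) and Hpcal4 by 1.77 ± 0.53 (adjusted p = 0.0200). Kcnip4 read 1687.3 to 2400.8 in Crx-/- ZT6 and 103.4 to 129.3 in control ZT6. The array labelled control ZT20 replicate 3 read 1190.6 for it. Hpcal4, like Camk2a, was brightest on 1 array, with 1607.6 on Crx-/- ZT6 replicate 3 and 87.6 to 149.1 on the other Crx-/- arrays, and its difference was 1.40 without both arrays of concern. Cabp1 was lower by -1.97 ± 0.32 (adjusted p = 0.000896), with 24.2 to 57.2 in Crx-/- ZT6 and 237.6 to 264.9 in control ZT6. By time in control glands Necab3 rose by 0.85 ± 0.17 (adjusted p = 0.00796), while the calcium sensors Cabp5 and Guca1a fell by 1.06 and 0.72 on the log2 scale. With control ZT20 replicate 3 left out the Cabp5 difference was -0.61.

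The kinase relatives of Camk2a also changed in both directions. Of 17 tested calmodulin-dependent kinases and calmodulin partners besides Camk2a, 3 were higher and 7 lower in Crx-/- glands over both times. Their median log2 change was -0.03. Of the leading probe sets of all genes 24.5% were higher and 17.4% lower, with a median of 0.04. Without both arrays of concern 4 of the 17 were higher and 7 lower, for which no share over all genes is given. This list, too, was chosen with earlier results known. Camkv, a kinase-like protein, was lower by -2.88 ± 0.70 (limma, adjusted p = 0.00699), from 2724.1 to 3207.0 in control ZT6 to 189.5 to 580.0 in Crx-/- ZT6. The array labelled control ZT20 replicate 3 read 97.6 for it, and the difference was -3.72 when that array was dropped. Camk4 (-0.75 ± 0.16), Camk1g (-0.67 ± 0.17) and Camk2b (-0.50 ± 0.06), the beta subunit of the same kinase as Camk2a, were lower with adjusted p up to 0.00932. On Crx-/- ZT6 replicate 3 Camk2b read 2851.8, within the 1543.4 to 2998.5 of the other Crx-/- arrays, where Camk2a was 14.8-fold above the other Crx-/- ZT6 arrays. By time in control glands 2 of the 17 rose and 3 fell at night, where 6.33% of all genes rose and 8.05% fell. Camk4 rose by 0.85 ± 0.23 and Camkk2 by 0.68 ± 0.19, while Camk2g fell by 0.70 and Camk2b by 0.46 on the log2 scale.

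Genes whose pattern over the 12 arrays was most like each member were found among 5179 genes that varied by at least 1 on the log2 scale. For Rbfox1 the highest Pearson r was with Slc24a3 (0.983), Nid1 (0.981) and Cd248 (0.980), and for Calb2 with Lama4 (0.982), Slc47a1 (0.980) and Eya2 (0.980). For each of these members more than 400 genes exceeded 0.9. For Rbfox3 they were Enc1 (0.962), Spock3 (0.961) and Kirrel3 (0.949), for Calb1 Gng3 (0.961), Frrs1l (0.954) and Scn2b (0.951), and for Rbfox2 Tnr (0.945), Pcdh7 (0.932) and Mrln (0.926). For Camk2a they were Kif5a, Ndrg4 and Ddn at 0.976, 0.964 and 0.963, which became 0.842, 0.778 and 0.791 without Crx-/- ZT6 replicate 3. Among the members themselves r was 0.947 for Rbfox1 and Calb2 (0.943 without that array) and 0.874 for Rbfox3 and Camk2a (0.754 without it). The points share their groups, the marker differences above and the normalization, and these values carry no test.

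The authors' deposited table of genes higher in Crx-/- glands, which holds 714 genes and joins both times, lists 5 of the 6 members. In the authors' deposited table the log2 fold was 2.30 for Rbfox1, 1.88 for Calb1, 1.74 for Camk2a, 1.65 for Rbfox3 and 1.36 for Calb2, and Rbfox2 was in neither its higher nor its lower list. Rbfox1 stands there under the older name A2bp1 and Rbfox3 as D11Bwg0517e. That table gives no values per array, so the part of Crx-/- ZT6 replicate 3 in its Camk2a value cannot be read from it.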

How the data were processed

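GCOS was used by the authors for the 12 arrays, per the labels, and the deposited values are the linear signal intensity of each probe set, which the arrays' unequal means show were not scaled to one another. The authors' deposited lists, made with ChipInspector 2.1 per the labels, hold log2 fold changes, which are quoted, and scores (linear fold, coverage), which are not. The 64 control features were left out, signals were quantile normalized, and log2(signal + 3.4), with the 10th percentile of all signals as pseudocount, was fitted with limma 3.58.1 in R 4.3.3 (group means, trend in the prior variance). Of 45037 probe sets 24273 passed the filter given above, and two-sided p-values were adjusted over them by the Benjamini-Hochberg method. The fit was tested on simulated data: for time in control glands 64% of probe sets changed by 1 and 90% of those changed by 2 (log2, 100 each) were recovered, with 6 false calls among 24273. Bounds ("at least") set the brighter mean against that of the dimmer group, with arrays below background raised to it. Replicate numbers did not pair the samples: same-numbered arrays correlated at -0.374 to 0.281 in 18 pairs, 6 of them over 0.1. From each of 3 lists up to 4 called genes with the largest change by genotype and by time in control glands were named, and for each member the 3 genes most like it. The members, lists and marker genes were chosen with earlier results of these data known. Alternatives changed the scaling, pseudocount, filter, prior, block and arrays used. Gene names came from the platform annotation and promoters from RefSeq.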

Additional observations from a re-analysis of the deposited data

How the results depend on the processing

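Of 636 comparisons of a member's log2 change with that under an alternative, 212 concern time of day within a genotype, which was tested. Of these 188 kept their direction and side of the threshold, 18 lost the call, 2 gained it and 4 changed sign. Of the other 424, given without a test, 414 moved by less than 1 SD between replicates, 9 moved by more and 1 changed sign. Counts of member probe sets called by genotype or interaction are not given, since the members were chosen on those differences. For time in control glands the 3 of 7 became 0 with signals as deposited (664 probe sets in all, against 2986), and 2 to 4 when 1 array was left out (4823 in all without control ZT20 replicate 3). For time in Crx-/- glands the 0 became 0 to 1, and 1 without both arrays of concern. The sign changed for the Calb1 interaction, from -0.98 to 0.70 without both arrays, and for time in Crx-/- glands, without Crx-/- ZT6 replicate 3 and without both, for Calb1 from -0.17 to 0.76 (-0.86 to 0.76 with 1 array left out) and for Camk2a from -1.25 to 0.048 (-1.97 to 0.048). The cause was not tested beyond the arrays left out. The replicate block gave 2 and 0 calls for time in control and in Crx-/- glands and ended the Calb2 call for time in control glands (adjusted p = 0.0502). Signals near background limit Calb2, Rbfox3 and the dimmer probe sets.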
